A study of Mus musculus with 27 samples.

Results

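The genes described here encode 7 transcription factors of the myeloid lineage, Spi1, Cebpa, Cebpb, Cebpd, Maf, Nr1h3 and Tfec. They were chosen by gene symbol from the 54532 genes of an expression table of mouse tibialis anterior muscle after volumetric muscle loss (VML), an injury in which part of the muscle is cut out. Bulk poly-A RNA was sequenced from 27 muscles of C57BL/6 mice, of which 5 were uninjured controls and 5, 6, 6 and 5 were taken at days 3, 7, 14 and 21 after injury. The design text gives male mice aged 8 weeks and an excision of 40% of the muscle. The public record calls the excision unilateral and the study's methods call it bilateral, so the state of the opposite leg is not settled. The labels do not say whether each sample came from a separate animal, and p-values therefore measure the spread between these samples.

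Myeloid cells, which include monocytes, macrophages and neutrophils, enter injured muscle, clear debris and signal to muscle stem cells and fibroblasts. Their identity is set by a small group of factors. PU.1, the product of Spi1, opens the enhancers of most macrophage genes, and C/EBP-alpha and C/EBP-beta (Cebpa and Cebpb) bind beside it, while C/EBP-delta (Cebpd) is best known from the acute phase response. c-Maf (Maf) restrains macrophage proliferation and favours resident and anti-inflammatory programs, LXR-alpha (Nr1h3) is an oxysterol receptor that turns on cholesterol export, and TFEC (Tfec) is a macrophage-enriched relative of MITF. Several are not confined to myeloid cells. C/EBP-alpha, C/EBP-beta, C/EBP-delta and LXR-alpha also act in adipocytes, and c-Maf acts in many tissues.

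The values are FPKM, fragments per gene length and sequencing depth, which can be compared between genes because they are per length. Samples held 14376395 to 24436763 recovered reads (median 17398586). The reads to which FPKM had been scaled averaged 0.782 times a sample's own total in uninjured muscle and 1.25 times at day 3, so the deposited values already hold a scaling between samples. Differences are given as log2 fold changes, the differences between group means of log2(FPKM + 1), which understate the change of genes near 0. They were tested with limma over the 14630 genes that reached an FPKM of 0.5 in 5 samples or more, and a gene was called higher or lower at a Benjamini-Hochberg adjusted p under 0.05. Of the 7 genes, 6 passed this filter and Tfec did not. The muscle fibre markers fixed for the check of the tissue summed to 80986 to 97197 FPKM in uninjured samples and 21218 to 61989 at day 3. These ranges do not overlap, so the fibre share of the RNA differs between the groups on the deposited scale. By macrophage and monocyte markers, day 3 replicate 5 was low in its group and day 7 replicate 5 high. The mean log2(FPKM + 1) of 10 such markers was 3.74 in the former, against a group mean of 4.93, and 5.70 in the latter, against 3.39. They were not the only samples far from their group mean, since day 7 replicate 6 was at 1.78.

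Among the 6 genes that could be tested, Spi1 and Cebpa rose most on the log2(FPKM + 1) scale, were highest at day 3 and came down toward uninjured levels by day 21. Cebpb rose less but was still higher at day 21. Maf was lower at days 3, 7 and 14 on the deposited scale, a call that was lost when FPKM was rescaled to a common sum per sample. Cebpd and Nr1h3 did not pass the test at any day on the deposited scale and were called higher at day 3 after that rescaling. At day 3, 3 of the 6 tested genes were called higher (Spi1, Cebpa, Cebpb) and 1 lower (Maf), where 23.4% of all tested genes were called higher and 19.8% lower. The counts at day 7 were again 3 higher and 1 lower, against 15% and 14.4% of all genes. At day 14, Cebpa and Cebpb were called higher and Maf lower, against 9.02% and 11.3%. At day 21 only Cebpb was called by limma, as higher, and 0 of the 6 were lower, against 1.74% and 1.69% of all genes. An unadjusted p under 0.05 was met there by 2 of the 6, Cebpb and Maf, and by 2898 of all 14630 genes. The median log2 fold change of the 6 genes was 0.51, 0.58, 0.41 and 0.42 at the 4 days, and that of all tested genes was 0.01, 0.03, 0.02 and 0.01.

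**Figure D1:**
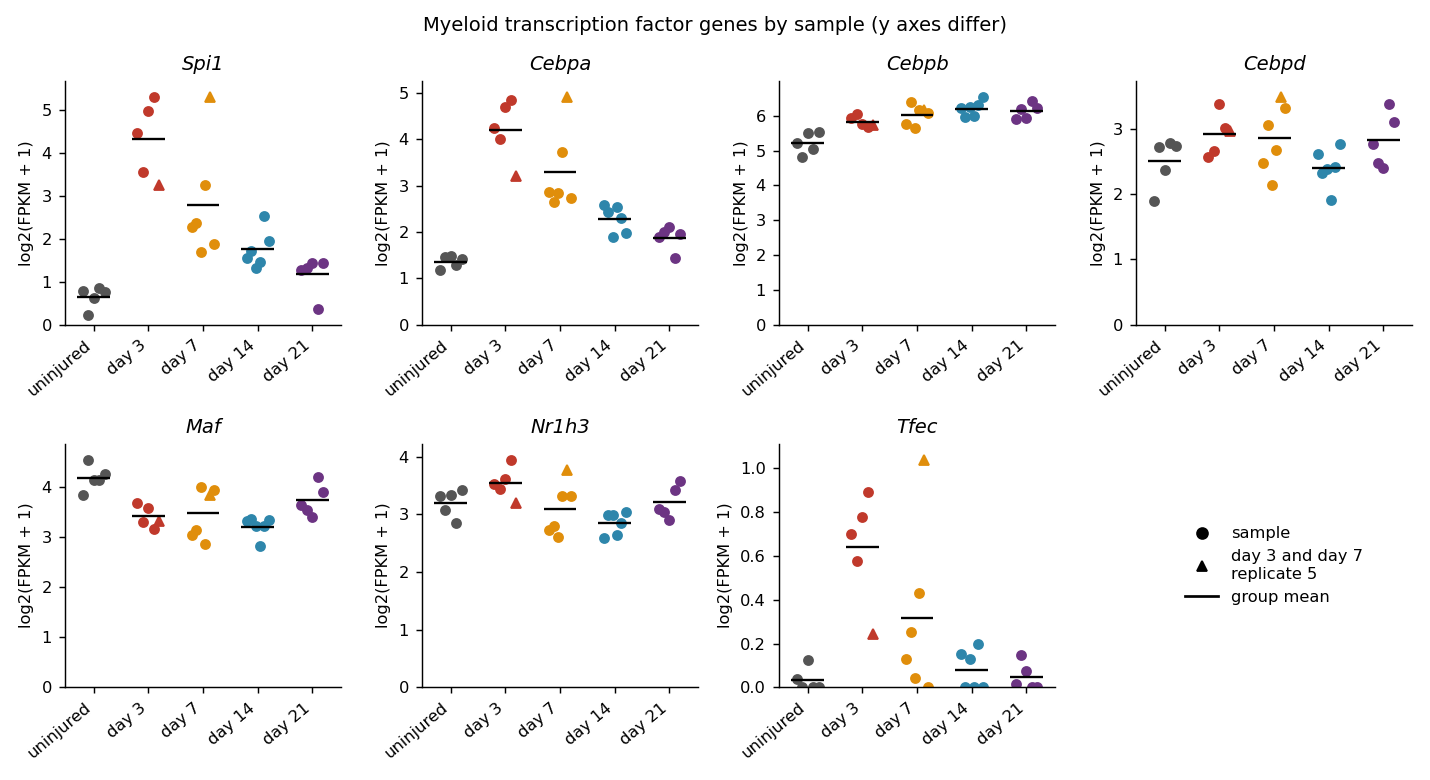
Expression of the 7 genes in each of the 27 samples, as log2(FPKM + 1) on the y axis of each panel and the 5 groups on the x axis. Points are samples, triangles are day 3 replicate 5 and day 7 replicate 5, and lines are group means. All 5 day 3 samples lie above all uninjured samples for Spi1, Cebpa, Cebpb and Tfec and below them for Maf, on the deposited scale. The share of all genes that separate in this way was not computed. At day 3, 23.4% of all tested genes were called higher and 19.8% lower.

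Spi1 (ENSMUSG00000002111, chr2:91082390-91115756 on GRCm38, plus strand) encodes PU.1. In the 5 uninjured muscles its FPKM was 0.724, 0.172, 0.538, 0.814 and 0.710, from 8 to 28 reads each. At day 3 it was 21.2, 10.8, 30.8, 38.6 and 8.53, and at day 21 it was 1.43, 1.51, 1.73, 0.296 and 1.70. All day 3 samples lay far above the uninjured range, and at day 21 only replicate 4 lay inside it. The 6 day 7 samples ran from 2.24 through a median of 4.03 to 38.5, and the 6 day 14 samples from 1.505 through 2.11 to 4.78. Both groups lay wholly above the uninjured samples, and the highest day 7 value belongs to replicate 5. Group means ± SD were 0.592 ± 0.255 (n = 5), 21.98 ± 12.9 (n = 5), 10.01 ± 14.1 (n = 6), 2.52 ± 1.204 (n = 6) and 1.33 ± 0.591 (n = 5).

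The log2 fold change of Spi1 at day 3 was 3.66 (SE 0.47, limma adjusted p = 2.69e-06), a 37.2-fold ratio of mean FPKM. It was 2.15 (SE 0.45, adjusted p = 0.00139) at day 7. Without day 7 replicate 5 the day 7 change was smaller and was still called, with a range of 1.65 to 2.37 over all samples left out in turn. At day 14 the change of 1.10 (SE 0.45) did not pass limma's threshold, with an adjusted p of 0.0832, although all 6 samples lay above all 5 uninjured ones. The exact permutation test of that single difference gave 0.00216, the smallest p possible for 6 against 5 samples. Without day 7 replicate 5 limma called the day 14 change of Spi1 (adjusted p = 0.0146), and with day 3 replicate 5 left out as well the adjusted p was 0.0085. These samples hold the highest day 7 and the lowest day 3 value of Spi1, so leaving them out lowers the spread limma uses for it. At day 21 the change was 0.52 (SE 0.47, adjusted p = 0.582), with 4 of 5 samples above the uninjured range and an exact permutation p of 0.0397.

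The Spi1 locus also holds Nr1h3, another of the 7 genes, 68304 bases further along the same chromosome. Mybpc3, a cardiac myosin binding protein gene, and Madd, which encodes a regulator of Rab proteins, lie between them. Mybpc3 was near 0 throughout, and Madd had a mean FPKM of 0.553 in uninjured muscle and 1.37 at day 3. The mean FPKM of Nr1h3 was 8.29 and 10.8 in the same groups, so these neighbours differed widely in the size of their change.

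Cebpa (ENSMUSG00000034957, chr7:35119293-35121928, plus strand) followed Spi1 from a higher starting level. Its uninjured FPKM was 1.25, 1.74, 1.78, 1.45 and 1.68, and its day 3 FPKM was 17.9, 14.98, 24.7, 27.5 and 8.17. The day 7 samples ran from 5.24 through 6.25 to 29.1 and the day 14 samples from 2.69 through 4.20 to 5.00. Each of these 3 groups lay wholly above the uninjured range. At day 21 it was 2.70, 2.99, 3.28, 1.72 and 2.85, and replicate 4, the lowest, fell inside that range. The means ± SD were 1.58 ± 0.224, 18.7 ± 7.75, 10.8 ± 9.32, 3.97 ± 0.969 and 2.71 ± 0.594 FPKM (n = 5, 5, 6, 6 and 5).

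For Cebpa the log2 fold change was 2.83 (SE 0.32, limma adjusted p = 5.63e-07) at day 3 and 1.93 (SE 0.31, adjusted p = 1.13e-04) at day 7. The day 14 change of 0.93 (SE 0.31) was called at an adjusted p of 0.0338. This call lies close to the threshold, since leaving out any of 8 single samples, namely uninjured replicates 1, 2, 4 and 5 and day 14 replicates 1, 2, 4 and 5, took it to the other side, with adjusted p-values up to 0.0732. The exact permutation test gave 0.00216, with 6 of 6 samples higher. At day 21 the change of 0.51 (SE 0.32) was not called (limma adjusted p = 0.389), while the exact permutation p for that single gene was 0.0238 with 4 of 5 samples above the range. A non-coding gene on the opposite strand, Gm45091, overlaps the start of Cebpa, and the libraries were not strand-specific. Its mean FPKM was at most 0.763 in any group.

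RefSeq promoter windows (GRCm38.p6, 300 bases around the annotated start, of which the last 50 follow it) were at hand for 4 of the 7 genes. The windows of Cebpa and Tfec are printed because these genes correlated closely with Spi1 across samples, and that of Cebpb because it did not. All are written 5′ to 3′ on the strand of the gene. Capitals mark a match to TATAAA, the core of a TATA box, or to AGGAAGT, an ETS core of the kind PU.1 binds.
Cebpa, chr7:35119043-35119342, plus strand: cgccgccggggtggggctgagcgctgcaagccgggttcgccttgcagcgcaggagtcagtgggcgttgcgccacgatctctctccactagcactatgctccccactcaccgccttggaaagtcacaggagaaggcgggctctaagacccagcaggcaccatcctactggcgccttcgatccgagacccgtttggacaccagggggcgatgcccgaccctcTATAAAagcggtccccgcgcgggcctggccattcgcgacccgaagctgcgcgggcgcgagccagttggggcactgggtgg
Tfec, chr6:16898392-16898691, minus strand: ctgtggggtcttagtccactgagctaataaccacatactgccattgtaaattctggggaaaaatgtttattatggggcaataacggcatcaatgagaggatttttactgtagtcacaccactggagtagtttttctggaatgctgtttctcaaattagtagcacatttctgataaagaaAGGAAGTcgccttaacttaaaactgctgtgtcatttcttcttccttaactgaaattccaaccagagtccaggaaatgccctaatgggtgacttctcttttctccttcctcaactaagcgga
Cebpb, chr2:167688665-167688964, plus strand: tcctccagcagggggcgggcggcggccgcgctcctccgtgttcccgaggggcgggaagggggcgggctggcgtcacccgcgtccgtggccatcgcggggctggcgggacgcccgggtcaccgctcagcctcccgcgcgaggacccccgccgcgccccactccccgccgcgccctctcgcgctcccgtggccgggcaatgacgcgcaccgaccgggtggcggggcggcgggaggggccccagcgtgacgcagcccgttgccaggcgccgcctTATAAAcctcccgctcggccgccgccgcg

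In these windows TATAAA begins 30 bases before the start in Cebpa and 22 bases after it in Cebpb, and AGGAAGT begins 71 bases before the start in Tfec. Over all 32851 windows in the RefSeq table, 13.6% held TATAAA and 9.35% held AGGAAGT on either strand. The other letters searched on both strands were GAGGAAGT, which contains AGGAAGT, TTGCGCAA and the looser TTGCNNAA for C/EBP, CACGTG and CATGTG for MiT factors and TGCTGA for Maf. None of them was found in the 5 windows of Cebpa, Cebpb, Nr1h3 (with 2 windows) and Tfec. The windows differ in composition. That of Cebpb is 80.7% G and C with 50 CpG dinucleotides, that of Cebpa 67.3% with 29 and that of Tfec 40.3% with 3, against medians of 52.7% and 7 over all windows.

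Cebpb (ENSMUSG00000056501, chr2:167688915-167690418, plus strand), a gene of a single exon, was the most abundant of the 7 in every group. Its uninjured FPKM was 36.2, 26.97, 44.3, 32.1 and 45.0, its day 3 FPKM was 60.1, 64.8, 53.4, 50.5 and 52.1, and its day 21 FPKM was 59.3, 71.6, 59.9, 84.6 and 73.3. The day 7 samples ran from 49.3 through 68.3 to 82.6 and the day 14 samples from 61.4 through 73.7 to 91.9. Every injured sample lay above every uninjured one. The means ± SD were 36.9 ± 7.77, 56.2 ± 6.03, 65.4 ± 12.4, 73.5 ± 11.1 and 69.7 ± 10.6 FPKM (n = 5, 5, 6, 6 and 5).

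Cebpb was called higher at all 4 days, with log2 fold changes of 0.61 (SE 0.16), 0.81 (SE 0.15), 0.99 (SE 0.15) and 0.91 (SE 0.16). The limma adjusted p-values were 0.0031, 5.82e-04, 2.32e-04 and 0.0036. With a common sum per sample the changes were 1.42, 1.53, 1.45 and 1.098, all still called, so that the order of the days differs between scales. No difference between any pair of injured groups passed the threshold for Cebpb, the widest being day 14 over day 3 by 0.38 (adjusted p = 0.0872). With quantile normalization that difference was 0.47 and was called (adjusted p = 0.0322). The first part of Cebpb overlaps the annotated span of Tmem189 on the opposite strand. The mean FPKM of Tmem189 was 5.89 in uninjured muscle, 11.2 at day 3 and 6.12 at day 21.

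Cebpd (ENSMUSG00000071637, chr16:15887286-15891031, plus strand) gave 2.73, 5.57, 4.19, 5.88 and 5.67 FPKM in uninjured muscle. At day 3 it gave 4.94, 5.30, 9.43, 7.03 and 6.79, and at day 21 it gave 5.81, 4.59, 4.28, 9.36 and 7.56. The ranges overlapped at both days. The day 7 samples ran from 3.38 through 6.33 to 10.2 and the day 14 samples from 2.76 through 4.26 to 5.80, again overlapping the uninjured range. The log2 fold changes of Cebpd on days 3, 7, 14 and 21 were 0.41 (SE 0.24, limma adjusted p = 0.171), 0.35 (SE 0.23, 0.250), -0.10 (SE 0.23, 0.787) and 0.32 (SE 0.24, 0.474). With reads scaled by each sample's own total the day 3 difference of Cebpd was 0.97 (adjusted p = 0.0045) and with a common sum 1.11 (0.0042), in settings that moved the median of all genes to 0.40 and 0.50, and the day 14 difference turned positive. Spidr, on the opposite strand, overlaps Cebpd and was at a mean FPKM of at most 0.252.

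Among the 3 C/EBP genes the make-up changed with time, which is given as a description. Their summed FPKM was 43.3 ± 7.68 in uninjured muscle and 81.5 ± 8.29, 82.9 ± 19.4, 81.8 ± 11.3 and 78.8 ± 11.9 on the 4 days after injury (mean ± SD). Cebpa supplied 3.73% ± 0.790 of that sum in uninjured muscle and then, in the same order, 22.4% ± 8.08, 12.2% ± 7.51, 5.00% ± 1.64 and 3.57% ± 1.13. On the deposited scale the sum at day 3 was 1.04 times that at day 21, but with a common sum per sample it was 1.62 times and with each sample's own total 1.45 times. The shares do not depend on this scaling, and the Cebpb part went from 69.3% at day 3 to 88.5% at day 21 as that of Cebpa shrank. The Cebpa share in the day 3 samples, from 12.2% to 32.4%, lay above that of every uninjured sample, which reached 5.08%. The ratio of Spi1 to Cebpa in FPKM had a median of 0.421 in uninjured muscle, 1.19 at day 3 and 0.526 at day 21.

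**Figure D2:**
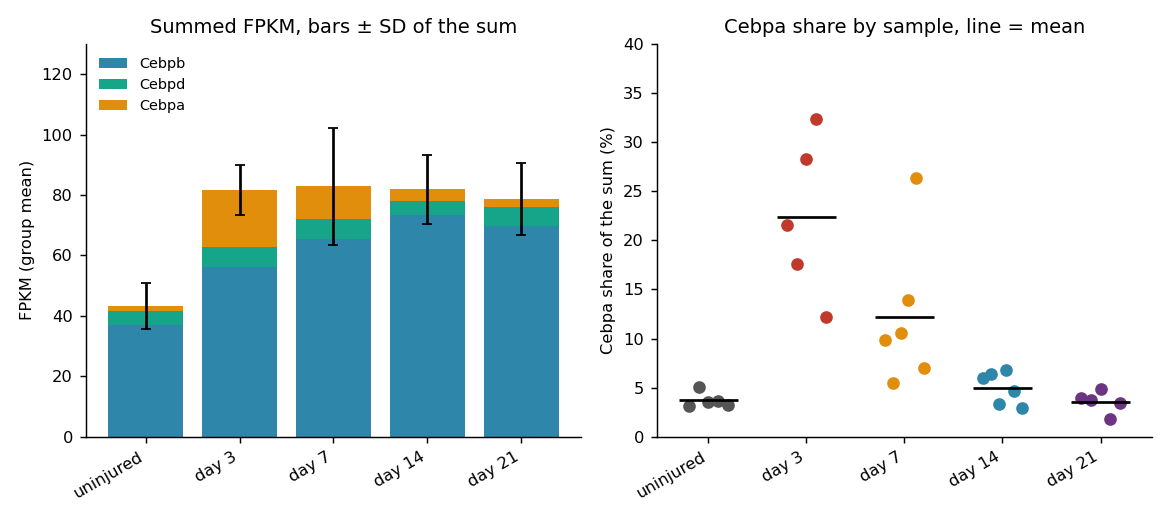
Left, mean FPKM of Cebpb, Cebpd and Cebpa stacked for each group, with error bars for the SD of the summed FPKM. Right, the percentage of that sum given by Cebpa in each sample, with lines at the group means. The sum lies between 78.8 and 82.9 FPKM in the injured groups on the deposited scale, whereas with a common sum per sample that of day 3 is 1.62 times that of day 21. The Cebpa share falls from 22.4% at day 3 to 3.57% at day 21.

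Maf (ENSMUSG00000055435, chr8:115682942-115707794, minus strand) went the other way. Its uninjured FPKM was 13.2, 22.3, 16.5, 16.6 and 18.1, and its day 3 FPKM was 11.8, 8.85, 11.005, 8.00 and 9.01, so the ranges did not overlap. At day 7 it ran from 6.25 through 10.6 to 14.95, with 3 of 6 samples below the uninjured range, and at day 14 from 6.09 through 8.62 to 9.26, with all 6 below. At day 21 it was 11.4, 10.7, 9.501, 17.3 and 14.0, and 3 of 5 samples were below. The log2 fold changes on days 3, 7 and 14 were -0.77 (SE 0.20, limma adjusted p = 0.0033), -0.71 (SE 0.19, 0.0082) and -0.97 (SE 0.19, 0.0018). At day 21 the change of -0.44 (SE 0.20) was not called (limma adjusted p = 0.218).

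The call for Maf depends on the scale between samples. With FPKM rescaled to a common sum the day 3 difference was -0.0028 and with each sample's own total of reads it was -0.15, and neither passed. In those settings the median of all tested genes was 0.50 and 0.40, and relative to that median Maf was at -0.50 and -0.55. In the muscle fibre list 6 of 6 genes were called lower at day 3, with a median of -1.44, and 2 of 6 with a common sum. Among them were Pvalb (parvalbumin) at -2.31 and, chosen after its value was seen, Ckm (muscle creatine kinase) at -1.43. Maf is expressed in many cell types, and the part of muscle fibres in this difference was not tested. In bulk muscle, fewer cells of a type and less RNA per cell cannot be told apart. The antisense gene Gm15655 that overlaps Maf was listed at 0 in every group.

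Nr1h3 (ENSMUSG00000002108, chr2:91184061-91202834, minus strand) gave 8.96, 7.39, 9.12, 6.20 and 9.78 FPKM in uninjured muscle, 10.5, 9.89, 11.2, 14.4 and 8.13 at day 3 and 7.56, 7.26, 6.50, 9.68 and 10.9 at day 21. At day 7 it ran from 5.09 through 7.47 to 12.6 and at day 14 from 4.99 through 6.54 to 7.18. Of the day 3 samples, 4 of 5 lay above the uninjured range, and only replicate 5 lay inside it. Its differences from uninjured muscle were 0.34 (SE 0.19, limma adjusted p = 0.149), -0.11 (SE 0.18, 0.686), -0.35 (SE 0.18, 0.165) and 0.01 (SE 0.19, 0.991), and none was called. Without day 3 replicate 5 and day 7 replicate 5 the day 3 difference of 0.43 was called by limma at an adjusted p of 0.046. Day 3 replicate 5 is the lowest day 3 sample, so leaving it out raises that difference by construction. With reads scaled by each sample's own total the day 3 difference was 0.94 (adjusted p = 0.0017) and that at day 7 turned to 0.38. Gm13783 and Gm23390 overlap Nr1h3. Gm23390 was listed at 0 and Gm13783 had a mean FPKM of at most 0.514.

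Tfec (ENSMUSG00000029553, chr6:16833373-16898441, minus strand) was close to the limit of detection. Its uninjured FPKM was 0.0268, 0, 0.0914, 0 and 0, a total of 8 reads, and its day 3 FPKM was 0.625, 0.492, 0.711, 0.855 and 0.185, a total of 354 reads. At day 21 it was 0.0106, 0.107, 0.0533, 0 and 0. All 5 day 3 samples lay above all uninjured samples, with an exact permutation p of 0.00794, the smallest possible for 5 against 5. The day 7 samples ran from 0 through 0.142 to 1.05, the highest being replicate 5, and the day 14 samples from 0 through 0.0477 to 0.146. Both groups overlapped the uninjured samples (exact permutation p = 0.0996 and 0.351). Fitted by limma without the filter on low values, the day 3 difference was 0.60 (SE 0.13, adjusted p = 0.0019) and the day 7 difference 0.28 (adjusted p = 0.18).

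Whether other members changed as Spi1 did was asked within each sample, as the log2(FPKM + 1) of a gene minus that of Spi1, compared with uninjured muscle in 24 exact permutation tests. The 4 tests of Tfec are not read, since its FPKM was near or under 1 throughout and adding 1 sets its gap. Its ratio of mean FPKM at day 3 was 24.3-fold and that of Spi1 37.2-fold. At day 3 the 5 other genes fell behind Spi1, which had the largest change of the tested members (3.66). The gap for Cebpa was -0.84 (exact p = 0.0238), with overlapping ranges, and those for Cebpb, Cebpd, Maf and Nr1h3 were -3.05 to -4.43 with no overlap (exact p = 0.00794 for each). The median log2 fold change of all tested genes at day 3 was 0.01, so a gene near that median would fall behind Spi1 as well. Wide gaps therefore mostly restate the rise of Spi1 itself. The share of all genes with such a gap was not computed for any day. At day 7 the gap for Cebpa was -0.22 (exact p = 0.461), while Cebpb, Cebpd, Maf and Nr1h3 had gaps of -1.33 to -2.85 with exact p-values of 0.00433 to 0.013. At day 14 the gaps for Cebpa (-0.18, exact p = 0.535) and Cebpb (-0.12, exact p = 0.619) were within the spread. At day 21 only that of Maf was not (-0.96, exact permutation p = 0.0397). A p that misses the threshold does not show that these genes moved alike. Spi1 itself was at 0.172 to 0.814 FPKM in uninjured muscle, so adding 1 makes its change smaller in all these gaps. The ratios of mean FPKM at day 14 were 4.27-fold for Spi1, 2.51-fold for Cebpa and 1.99-fold for Cebpb.

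Between injured groups, 0 of the 6 tested genes were called for day 7 against day 3, where 0.0478% of all tested genes were called. The differences were -1.52 for Spi1 and -0.90 for Cebpa (limma adjusted p = 0.0934 and 0.134). An unadjusted p under 0.05 was met by 3 of the 6 genes and by 2301 of all 14630 tested genes. The count of called genes rests on day 3 replicate 5 and day 7 replicate 5. Without day 3 replicate 5 alone 2 genes were called, and without day 7 replicate 5 alone 3 were. Without both, Spi1 (-2.28), Cebpa (-1.47) and Nr1h3 (-0.67) were called lower at day 7 than at day 3. These samples hold the lowest day 3 and the highest day 7 value of all 3 genes. They were singled out by markers that track Spi1 and Cebpa. Leaving them out widens the difference by construction, so these calls are no independent support for a fall. For day 14 against day 7 and day 21 against day 14, 0 of the 6 were called by limma, against 0.335% and 0% of all genes. At an unadjusted p under 0.05 there were 3 and 1 of the 6, and 1821 and 909 of all 14630 genes.

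Over longer intervals the decline passed the threshold. From day 3 to day 14, where 18.7% of all genes were called, 3 of the 6 genes were called, all lower. The differences were -2.56 for Spi1 (SE 0.45, limma adjusted p = 5.01e-04), -1.90 for Cebpa (SE 0.31, adjusted p = 2.96e-04) and -0.70 for Nr1h3 (SE 0.18, adjusted p = 0.0080). From day 3 to day 21, where 25.5% were called, 2 of the 6 genes were called, Spi1 (-3.14) and Cebpa (-2.32). From day 7 to day 21, where 2.25% were called, only Cebpa was (-1.42, adjusted p = 0.0138), and without day 21 replicate 4 its adjusted p was 0.0507. Spi1 missed in that comparison (-1.63, adjusted p = 0.0535). In order of level, then, day 3 stood above day 14 and day 21 for Spi1 and Cebpa, and with all samples no pair of neighbouring days passed the test.

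The members were set beside markers of the cells that could carry them. Of 10 macrophage and monocyte markers, 10, 9, 4 and 0 passed the test as higher on days 3, 7, 14 and 21. The shares of all tested genes called higher were 23.4%, 15%, 9.02% and 1.74%. Their summed FPKM ran from 23.004 to 35.8 in uninjured samples. On the 4 days after injury it ran from 470.1 to 2606, from 64.7 to 2511, from 60.9 to 144 and from 48.3 to 82.0, and none of the markers was at 0 in a whole group. As a group mean, Spi1 kept an almost constant distance below the mean of these markers, -0.49, -0.61, -0.59, -0.45 and -0.62 on the log2(FPKM + 1) scale in the 5 groups. Single day 7 samples ran from -1.11 to 0.11. Cebpa did not keep its distance, which went from 0.22 in uninjured muscle to -0.74 at day 3. Maf moved from 3.03 above that mean in uninjured muscle to 1.52 below it at day 3 (-1.52), and Cebpb from 4.07 above to 0.90 above. In uninjured muscle Spi1 and some markers, such as Ms4a7 and Ptprc, had a mean under 1 FPKM, where adding 1 narrows the distances. Ms4a7 and Ptprc, at 0.0406 and 0.0539, passed the filter only through injured samples and could hardly be called lower. The ratio of mean FPKM at day 3 was 37.2-fold for Spi1 and 13.8-fold (Cd14) to 325-fold (Ms4a7) for the markers. The part of macrophage number in the rise of Spi1 and Cebpa was not tested.

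Over the 27 samples, which share libraries, depth and the marked contrast between groups, the log2 values of Spi1, Cebpa and Tfec correlated with the marker mean at Pearson r of 0.976, 0.978 and 0.930 (Spearman 0.938, 0.942 and 0.779). After group means were removed, r was 0.902, 0.909 and 0.917. The same values for Cebpb were 0.206 and 0.0514, and for Maf -0.415 and -0.120. Nr1h3 was in between by Pearson r, at 0.480 and 0.468. The Spearman values of Cebpb, Maf and Nr1h3 were 0.216, -0.587 and 0.189, so by rank Nr1h3 lay just under Cebpb. Spi1 and Cebpa correlated with each other at 0.966, and Spi1 and Tfec at 0.931, whereas Spi1 and Cebpb correlated at 0.227.

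**Figure D3:**
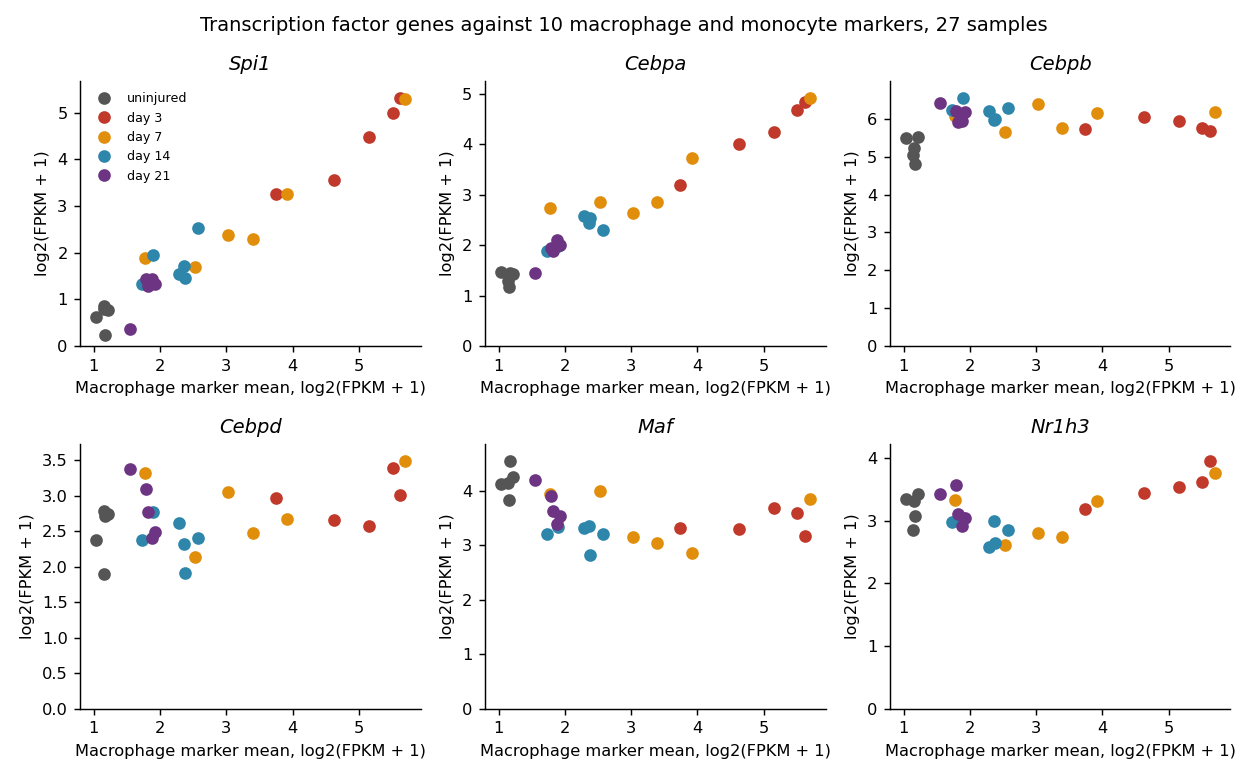
Log2(FPKM + 1) of the 6 tested genes (y axes) against the mean log2(FPKM + 1) of 10 macrophage and monocyte markers (x axes) in each of the 27 samples, coloured by group. Spi1 and Cebpa lie along a rising line from uninjured to day 3 samples, and Cebpb is nearly level at r = 0.206.

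Markers of other cells moved in part with these groups. On the deposited scale 23.4% of all tested genes were called higher and 19.8% lower at day 3, and 15% higher at day 7. S100a8 and S100a9, alarmins abundant in neutrophils and monocytes, were the 2 of 3 tested neutrophil markers called higher at day 3, and the list summed to 0.403 to 4.54 FPKM in uninjured samples and 17.01 to 37.5 at day 3. The other members, none of which but Mmp9 was tested, were low. At day 3 and in uninjured muscle the mean FPKM was 1.64 and 0.352 for Mmp9, 0.312 and 0.162 for Retnlg and 0.191 and 0.0320 for Cxcr2. Ly6g, Elane and Mpo were at 0 in all uninjured samples and at 0.0102, 0.0524 and 0.0369 at day 3. Of the adipocyte markers, whose cells also express Cebpa and Cebpb, 0 of 5 tested were called at day 3 and 4 were higher at day 7, among them, chosen after their values were seen, Cfd (adipsin) by 2.53 and Adipoq (adiponectin) by 2.23. That list summed to 2.15 to 26.8 FPKM in uninjured samples, 0.332 to 43.2 at day 3 and 11.2 to 357 at day 7. Its part in the day 7 values of Cebpa and Cebpb was not tested. None of the 5 T cell markers passed the filter, and of the 2 tested B cell markers Cd79b was higher at day 3 (0.71). Mast cell markers were not called at day 3 (0 of 5). Fibroblast markers were higher at day 3 for 3 of 6 genes (6 of 6 with a common sum), endothelial markers lower for 2 of 5 (1 of 5 with a common sum, where 2 were higher) and satellite cell markers higher for 3 of 4.

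Genes that act beside or downstream of these factors were taken from lists of background knowledge. For comparison with every list, 23.4%, 15%, 9.02% and 1.74% of all tested genes were called higher on the 4 days. At day 3, 19.8% were called lower. Where a list has 0 called genes at day 21, limma is meant. At an unadjusted p under 0.05 there were 2 of 20 myeloid lineage genes and 6 of 18 LXR genes. With the same cut there were 1 of 9 C/EBP targets, 1 of 10 macrophage markers and 2898 of all 14630 tested genes. Of 20 myeloid lineage genes that PU.1 and C/EBP factors are known to drive, the numbers called higher on days 3, 7, 14 and 21 were 20, 18, 6 and 0, and the median log2 fold change went from 3.23 to 0.50. All 20 passed the filter on low values, some of them only with their injured samples. Uninjured mean FPKM was 0.0888 for Fcgr1, 0.121 for Csf2rb, 0.128 for Cybb and 0.147 for Itgam, so such genes could hardly be called lower. Of the 20, 6 are also in the macrophage marker list. The widest changes at day 3 were in Lyz2 (lysozyme, 5.77), Cd68 (a lysosomal protein, 5.53), Fcer1g (the Fc receptor gamma chain, 5.21) and Tyrobp (the adaptor DAP12, 5.13). Lyz2 went from a mean of 16.9 FPKM in uninjured muscle to 1165 at day 3 and 35.9 at day 21.

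Of the 18 partners and targets of LXR, 10 were called higher and 3 lower at day 3, although Nr1h3 itself was not called, and 0 were called at day 21. The median over the 18 was 0.47. With a common sum 11 were higher and 1, Lpl, lower. Apoe (apolipoprotein E) rose by 4.90, from 37.5 to 1202 FPKM, Abcg1 (a cholesterol exporter) by 2.39 and Arl4c (a small GTPase) by 2.31. Cd5l, a secreted macrophage protein, was listed at 0 in uninjured muscle and at a mean of 4.88 FPKM at day 3. The 3 lower genes, named after their values were seen, were Lpl (lipoprotein lipase, -1.27), Smpdl3a (a phosphodiesterase, -0.95) and Rxra (the RXR partner of LXR, -0.66, which turned to 0.13 with a common sum). Apoe is made in large amounts by macrophages, and Lpl by muscle fibres and adipocytes.

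Of 14 targets of C/EBP-beta and C/EBP-delta 9 passed the filter, and 8, 4, 1 and 0 of them were higher on days 3, 7, 14 and 21, while Cebpb stayed higher through day 21. Mean uninjured FPKM was 0.0077 for Arg1, 0.020 for Msr1, 0.061 for Il1b and 0.0052 for Saa3. These genes passed the filter only through injured samples and could hardly be called lower, which limits what the count shows. G0s2, a lipase inhibitor and the most abundant of them, was not called (-0.13). Il13ra1 (an IL-13 receptor chain) rose by 1.75, Msr1 (a scavenger receptor) by 1.71, Socs3 (a feedback inhibitor of cytokine signalling) by 1.69 and Arg1 (arginase) by 1.68. Among the other C/EBP genes Ddit3 (CHOP) and Cebpg were lower at day 3, at -0.80 and -0.69, with 2 of 3 tested called, while with a common sum 0 of 3 were and Cebpg turned to 0.045.

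Among the relatives of Tfec, Tfe3 was higher (0.71) and Tfeb lower (-0.43, which turned to 0.34 with a common sum) at day 3, and Mitf was not called (-0.27). Spib and Spic, the relatives of Spi1, did not pass the filter.

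Other myeloid transcription factors numbered 14, of which 12 were tested, with 7 higher and 1 lower at day 3 and a median of 0.66. Runx1, a factor of blood stem cells and of injured muscle, rose by 2.05, Irf8, a partner of PU.1, by 1.64, Id2 by 1.55 and Batf3 by 1.12. The lower gene was Bhlhe41 (-1.05, not called with a common sum), named after its value was seen. At day 21 the 2 called genes were Runx1 (1.68, limma adjusted p = 0.0188) and Id2 (1.43, adjusted p = 0.0042), beside Cebpb of the 7 described here. Runx1 was at mean FPKM of 0.154 in uninjured muscle, 4.05 at day 3 and 2.88 at day 21, and Id2 at 1.74, 7.25 and 6.30.

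**Figure D4:**
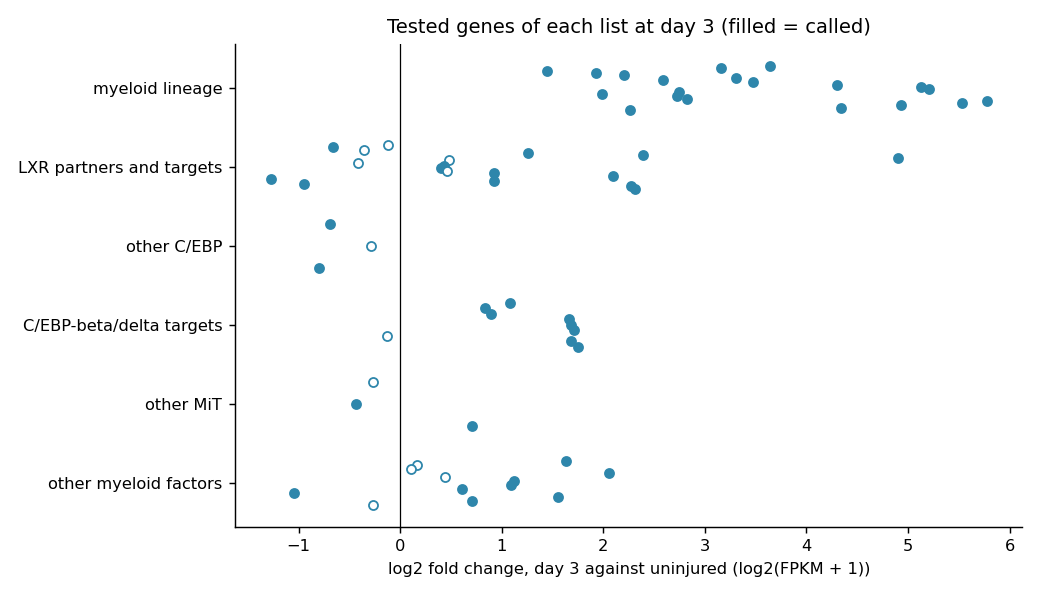
Log2 fold change at day 3 against uninjured muscle, on the log2(FPKM + 1) scale, for each tested gene of 6 lists. Filled points passed an adjusted p of 0.05. All 20 myeloid lineage genes lie above 0, several from uninjured levels too low to fall far. The LXR, other C/EBP and MiT lists and that of other myeloid factors hold genes called lower on the deposited scale. Of these, Rxra, Cebpg and Tfeb turn to above 0 when FPKM is scaled to a common sum.

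For each member the 3 tested genes with the highest Pearson correlation over the 27 samples were listed, as a description. Those of Spi1 were Fermt3 (kindlin-3, a leukocyte integrin activator, 0.984), Tifab (0.983) and Cyth4 (0.981). Those of Cebpa were C1qc (0.980), Cotl1 (0.979) and Itgb2 (the leukocyte integrin beta chain, 0.978), and those of Tfec were Galnt6 (0.972), Nxpe5 (0.972) and Snx20 (0.971). The nearest genes of Cebpb correlated less, Rab13 at 0.848, Gm17501 at 0.789 and Uchl1 at 0.774, and Rab13 went from 3.99 FPKM in uninjured muscle to 7.39 at day 3 and 10.01 at day 21. Those of Maf were Tab2 (0.881), Cdc42ep3 (0.875) and Ccnk (0.867), each at its highest mean FPKM in uninjured muscle. Those of Nr1h3 were Ddx39 (0.832), Lsm2 (0.830) and Hnrnpc (0.806), and those of Cebpd were Pomc (0.744), Rps6ka1 (0.684) and Zup1 (0.673).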

How the data were processed

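Bulk poly-A RNA from 27 tibialis anterior muscles was sequenced by the authors from libraries without strand information, aligned with HISAT2 2.0.5 and counted per gene with featureCounts 1.5.0-p3. The genome build was not given in the sources used here. The authors deposited FPKM per gene with gene lengths, and name no method for the scaling between samples. FPKM times length gave whole reads. Coordinates are those of the deposited table, of which 54409 genes were found in GENCODE M21 (GRCm38), 98.3% with the same coordinates.

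Groups and replicate numbers came from sample titles. Genes that reached an FPKM of 0.5 in 5 samples or more (14630) entered 1 limma fit (version 3.58.1, R 4.3.3) of log2(FPKM + 1) over the 27 samples, with a variance trend and two-sided tests with Benjamini-Hochberg adjustment over all tested genes of a comparison. Exact permutation tests used all divisions of the samples of 2 groups, in 28 tests of single genes and 24 of differences from Spi1. The fit was tested on simulated data. Figures were drawn with matplotlib 3.10.9. Motifs were chosen with the sequences in view.

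The 7 genes and all lists were chosen with earlier results of these data known. Named genes are the 7, their nearest 3 genes by correlation, overlapping and neighbouring genes, and per list up to 4 of the widest called changes at day 3 plus its most abundant gene. The results of 2 lists that touch a withheld item are not reported here. Alternatives changed the pseudocount, filter, scaling, weights, trend, blocks, the groups fitted and the samples included.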

Additional observations from a re-analysis of the deposited data

Results flagged for a closer look

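In 35 groups of samples (7 genes in 5 groups), 2 held a sample whose gap to its neighbour was wide for the range of its group, where chance gives about 1 in 20. Spi1 in day 21 replicate 4 was the lowest of 5, at an FPKM of 0.296, with a gap of 0.845 of the range. Maf in day 14 replicate 4 was the lowest of 6, at an FPKM of 6.09, with a gap of 0.723 of the range.

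The change from uninjured muscle differed between time points in 6 tests by limma. From day 3 to day 14 it differed for Spi1 by -2.56, for Cebpa by -1.90 and for Nr1h3 by -0.70. From day 3 to day 21 it differed for Spi1 by -3.14 and for Cebpa by -2.32, and from day 7 to day 21 for Cebpa by -1.42.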

How the results depend on the processing

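Of 420 values for changes from uninjured muscle under 15 alternatives, 376 kept their direction and side of the threshold, as did 743 of 756 with 1 sample left out.

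Scaling mattered most. With FPKM scaled to a common sum, Cebpd was 1.11 at day 3, 0.96 at day 7 and 0.28 at day 14, Maf was -0.0028, -0.036 and -0.52 and not called, Nr1h3 was 1.09, 0.54 and 0.065, and Cebpa at day 14 was 1.23 (limma adjusted p = 0.053). The members called became 1 at day 14, 5 for day 14 against day 3, 2 for day 21 against day 7 and 4 for day 21 against day 3. Reversed were Maf (-0.033) for day 7 against day 3, Cebpb (-0.072) for day 14 against day 7, Cebpb (-0.43), Maf (-0.22) and Nr1h3 (-0.37) for day 21 against day 7, and Cebpb (-0.32) and Maf (-0.26) for day 21 against day 3. With each sample's own total, Cebpd was 0.97, 0.81 and 0.22, Maf -0.15 and -0.20 and not called at days 3 and 7, Nr1h3 0.94 and 0.38, and the same 3 counts were 5, 2 and 4. Reversed there were Maf (-0.047) for day 7 against day 3, Cebpb (-0.25), Maf (-0.062) and Nr1h3 (-0.21) for day 21 against day 7, and Cebpb (-0.16) and Maf (-0.11) for day 21 against day 3. These scalings moved the median of all genes at the 4 days to 0.50, 0.47, 0.28 and 0.11, and to 0.40, 0.36, 0.24 and 0.11, by construction. Quantile normalization gave Cebpa 0.84 at day 14 (not called), Cebpb 0.47 for day 14 against day 3 (called) and Cebpb -0.050 for day 21 against day 7.

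With sample quality weights limma called Cebpd (0.47) and Nr1h3 (0.39) at day 3, Spi1 at day 14 (1.01) and Maf at day 21 (-0.54), with Nr1h3 at -0.091. The members called were then 2 at day 21, 3 for day 7 against day 3 and 2 for day 21 against day 7, with Maf (-0.24) and Cebpb (-0.051) reversed in the last 2. A pseudocount of 0.1 gave Tfec 2.39, 1.17, 0.30 and 0.11 at the 4 days and Spi1 1.93 at day 14 (called), and a pseudocount of 0.5 gave Tfec 1.002 at day 3 and Spi1 1.43 at day 14 (called). Either pseudocount, or an FPKM minimum of 1, gave 2 members for day 21 against day 7. Voom weights on recovered reads gave Tfec 5.10, 2.88, 0.80 and 0.55, Cebpa 1.31 at day 14 (not called) and Nr1h3 -0.0064 at day 21. Without the filter Cebpa at day 14 (0.93) was not called. With only the 2 groups compared, Maf at day 7 (-0.71) was not called, Spi1 at day 14 (1.10) and Cebpa at day 21 (0.51) were, and the members called were 2 at day 21 and 0 for day 21 against day 7. Day 3 and day 7 replicate 5 are extremes of their groups for Spi1, Cebpa and Nr1h3, so their removal is not a neutral check. Without them, Nr1h3 at day 3 (0.43) and Spi1 at day 14 (1.10) were called. For day 7 against day 3, 3 members were then called and Maf was at -0.037. Cebpd was at 0.094 for day 21 against day 7. Apart from the scalings and left-out samples, the cause was not tested.

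The labels do not say whether the replicate numbers pair the samples, and the main fit did not pair them. Of 51 same-numbered pairs across groups, r was -0.52 to 0.57 with a median of -0.0031, and it was above 0.1 for 15. Of 27 samples, 11 correlated best with their own number. The number to be met by chance was not computed, so pairing is not settled. A replicate block by number gave 2 members for day 21 against day 7, with Cebpd at 0.052. A replicate block by the letter in the descriptions gave 2 at day 21, with Maf -0.59 (called) and Nr1h3 -0.035, and Maf -0.015 for day 7 against day 3.

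With each sample left out in turn, Spi1 at day 14 was 0.95 to 1.19, Cebpa at day 14 was 0.87 to 1.01 and Nr1h3 at day 21 was -0.083 to 0.083. Members called ranged from 0 to 3 for day 7 against day 3 and from 0 to 2 for day 21 against day 7. Changes of sign came for Cebpd (-0.19 to 0.086) and Maf (-0.045 to 0.18) in day 7 against day 3, and for Cebpd in day 21 against day 7 (-0.18 to 0.094) and day 21 against day 3 (-0.23 to 0.026). Depth limits Tfec, with 8 reads over the uninjured samples, and Spi1, with 106.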
